A study of Mus musculus with 32 samples.

Results

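Here, 10 genes of the p53 arrest and feedback circuit were followed through the damage, repair and transcription data of 4 mouse organs. The members were taken from a list of symbols (Cdkn1a, Ccng1, Btg2, Mdm2, Mdm4, Ppm1d, Trp53, Trp53inp1, Zmat3 and Phlda3), each symbol was matched to its Ensembl identifier in the GENCODE annotation of mm10, and all 10 were found, among 25041 genes with a position that the files of all 3 assays hold. Female C57BL/6J mice of 6 to 7 months were injected intraperitoneally with 10 mg/kg cisplatin in saline (154 mM sodium chloride), and the controls of the RNA-seq received the same volume of saline alone. The labels give 2 h after treatment for every sample, whereas the protocol places 4 h between injection and sacrifice. Kidney, liver, lung and spleen were each measured by RNA-seq in 2 control and 2 cisplatin libraries, by Damage-seq in 2 cisplatin libraries and by XR-seq in 2 cisplatin libraries, so Damage-seq and XR-seq have no untreated libraries here. Damage-seq counts cisplatin adducts that were still in the DNA, XR-seq counts the short oligonucleotides that nucleotide excision repair had cut out around adducts, and each gene has 2 such counts, 1 for the transcribed strand (TS), which RNA polymerase reads, and 1 for the opposite, non-transcribed strand (NTS). The organs were processed whole, so fewer cells of a type and less RNA per cell cannot be told apart.

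The transcription factor p53 is held at a low level in unstressed cells because Mdm2, a ubiquitin ligase, marks it for degradation and Mdm4, a relative of Mdm2, binds and inhibits it. DNA damage releases p53 from this hold, and p53 then switches on genes that stop the cell cycle, of which Cdkn1a (p21, an inhibitor of cyclin-dependent kinases) is the best known, together with genes that switch p53 off again, such as Mdm2 itself and the phosphatase Ppm1d (Wip1). Cisplatin forms intrastrand crosslinks mainly between neighbouring guanines (GG), which block RNA polymerase when they lie on the TS and are then removed by transcription-coupled repair.

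The members are protein-coding genes on 6 chromosomes, between 3.0 kb (Phlda3) and 71.1 kb (Mdm4) long. In GRCm38 (mm10), Cdkn1a lies at chr17:29090976-29100727 on the plus strand and Btg2 at chr1:134075170-134079120 on the minus strand. Ccng1 lies at chr11:40748552-40755311 (minus), Mdm2 at chr10:117688875-117710758 (minus) and Mdm4 at chr1:132959484-133030561 (minus). Ppm1d lies at chr11:85311244-85347066 (plus), Trp53 at chr11:69580359-69591873 (plus) and Trp53inp1 at chr4:11156431-11174379 (plus). Zmat3 lies at chr3:32334792-32366014 (minus) and Phlda3 at chr1:135766119-135769136 (plus). Their density of GG dinucleotides over both strands ranged from 91.5 per kb in Trp53inp1 to 187 per kb in Phlda3. Annotated models on the opposite strand, which the files do not count, overlap 1046 bases of Cdkn1a and 639 bases of Mdm4, and since the RNA libraries did not mark strand, their reads and those of the members cannot be told apart.

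p53 binds DNA as a tetramer on pairs of a 10-base motif, and 7 of the 10 members held a pair of the consensus p53 motif within 3000 bases of the annotated gene start, when both strands were searched with 0 to 10 bases between the motifs and at most 1 mismatch in all. Among the 19088 genes tested in RNA-seq and searched in the same way, 24.2% held such a pair. Pairs without a mismatch were found in 2 members, Zmat3 and Trp53inp1, and in 1.52% of all genes searched. No pair was found around Btg2, Trp53 and Phlda3, which says only that these letters are not in that window. The sequences are shown because they place the members beside the factor that the circuit is named for, and they were read from the GRCm38 reference, 5′ to 3′ on the strand of the gene, with the motifs in capitals and the bases between them in lower case.
Cdkn1a, upstream, chr17:29090928-29090947, plus strand, 1 mismatch: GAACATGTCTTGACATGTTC
Mdm2, upstream, chr10:117711670-117711689, minus strand, 1 mismatch: GGGCAATTCCGGGCAAGTCC
Ccng1, upstream, chr11:40755462-40755481, minus strand, 1 mismatch: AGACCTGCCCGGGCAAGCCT
Ccng1, intron, chr11:40754936-40754955, minus strand, 1 mismatch: ACGCAAGCCCGGGCTAGTCT
Ppm1d, upstream, chr11:85310729-85310753, plus strand, 1 mismatch: GGACAAGTCCcacccAAGCCAGTTC
Trp53inp1, upstream, chr4:11155112-11155132, plus strand, no mismatch: AAACATGTCCaGGACTAGCCT
Zmat3, exon, chr3:32364331-32364350, minus strand, no mismatch: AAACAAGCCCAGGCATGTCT
Mdm4, upstream, chr1:133031542-133031563, minus strand, 1 mismatch: GTGCAAGTCCccAGGCATGTTT
The centre of the Cdkn1a pair lay 38 bases before the annotated gene start, and that of the upstream Ccng1 pair 160 bases before it. The Zmat3 pair lay 1674 bases after the start, and a further pair with 1 mismatch overlapped it. No binding of p53 was measured in these samples.

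The RNA-seq libraries held 15619474 to 162270280 reads on genes, the XR-seq libraries 10658675 to 59779770 and the Damage-seq libraries 1571167 to 6441367. The control libraries of the lung and of the spleen differed by little more than counting noise (a dispersion index, where 1 is counting noise, of 2.75 and 2.98, against 39.3 to 349 in the other RNA-seq pairs), so each of these pairs was summed and counted as 1 sample. The submitters exchanged the control and cisplatin annotations of the lung and spleen RNA-seq samples in an amended record. The present annotation was used, and under the earlier one the lung and spleen fold changes would have the opposite sign. Markers of the labelled organ were high in each sample, with a summed level of 10170 to 15771 CPM (counts scaled to a common library total of 1000000) for 5 kidney genes in kidney, 107548 to 248678 for 5 liver genes in liver, 49174 to 55928 for 5 lung genes in lung and 1782 to 2062 for 5 lymphocyte genes in spleen. Both spleen cisplatin libraries also held pancreatic RNA, 1043 and 727 CPM over 5 acinar genes against 0.160 in the control sample, and 4 of the 5 were called higher. In lung, 5 lymphocyte genes summed to 60.9 and 46.9 CPM after cisplatin against 207 in the control sample (1 of 5 called lower), and 4 adipose genes to 188 and 63.0 against 1020 (none of 4 called). In liver, 5 lung genes summed to 31.6 and 52.4 CPM after cisplatin against 12.7 and 7.22 in controls, with 1 of 5 called higher, and the adipose genes to 35.7 and 133 against 11.7 and 10.8 (none of 4 called). In spleen the adipose genes summed to 148 and 23.3 CPM after cisplatin against 21.3 in the control sample (none of 4 called). In kidney, 1 of 5 lymphocyte genes was called lower (5.03 and 4.98 against 7.36 and 12.3 CPM). The part of these shifts in the results for the members was not tested.

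Cdkn1a had the largest fold change of the members in every organ, and it passed the test in kidney. CPM scaled by TMM factors are used throughout for RNA levels within a gene. In kidney, Cdkn1a stood at 12.7 and 28.4 CPM in the 2 control samples and at 390 and 437 CPM in the 2 cisplatin samples. In liver it stood at 9.30 and 56.0 CPM in controls and at 182 and 358 CPM after cisplatin, and in lung at 110 CPM in the summed control and 371 and 448 CPM after cisplatin. Spleen had the lowest group means, 10.5 CPM in the summed control and 30.7 and 26.0 CPM in the 2 cisplatin samples, and in none of the 4 organs did the groups overlap. The fitted change was 20.1-fold in kidney (log2 fold change 4.33 ± 0.75 SE, adjusted p = 0.0129 by edgeR's quasi-likelihood test, in which a change had to exceed 0.4 on the log2 scale). It was 8.27-fold in liver (3.05 ± 0.70, adjusted p = 0.0528), 3.74-fold in lung (1.90 ± 0.88, adjusted p = 0.727) and 2.70-fold in spleen (1.43 ± 0.85, adjusted p = 1.0), so that only the kidney passed the threshold of 0.05. All 4 organs shared 1 estimate of the spread in this fit, and the liver samples spread widely for this gene. When each organ was fitted alone, lung Cdkn1a passed the test (adjusted p = 0.019), while liver (0.254) and spleen (0.368) did not, and over all 13 alternatives per organ the adjusted p ranged from 2.34e-06 to 0.101 in kidney, 0.000499 to 0.254 in liver, 0.00217 to 1.0 in lung and 0.0367 to 1.0 in spleen. The log2 fold change stayed positive in all of them, between 1.31 and 5.03. The fit of liver alone called 0 of 13868 genes.

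**Figure D1:**
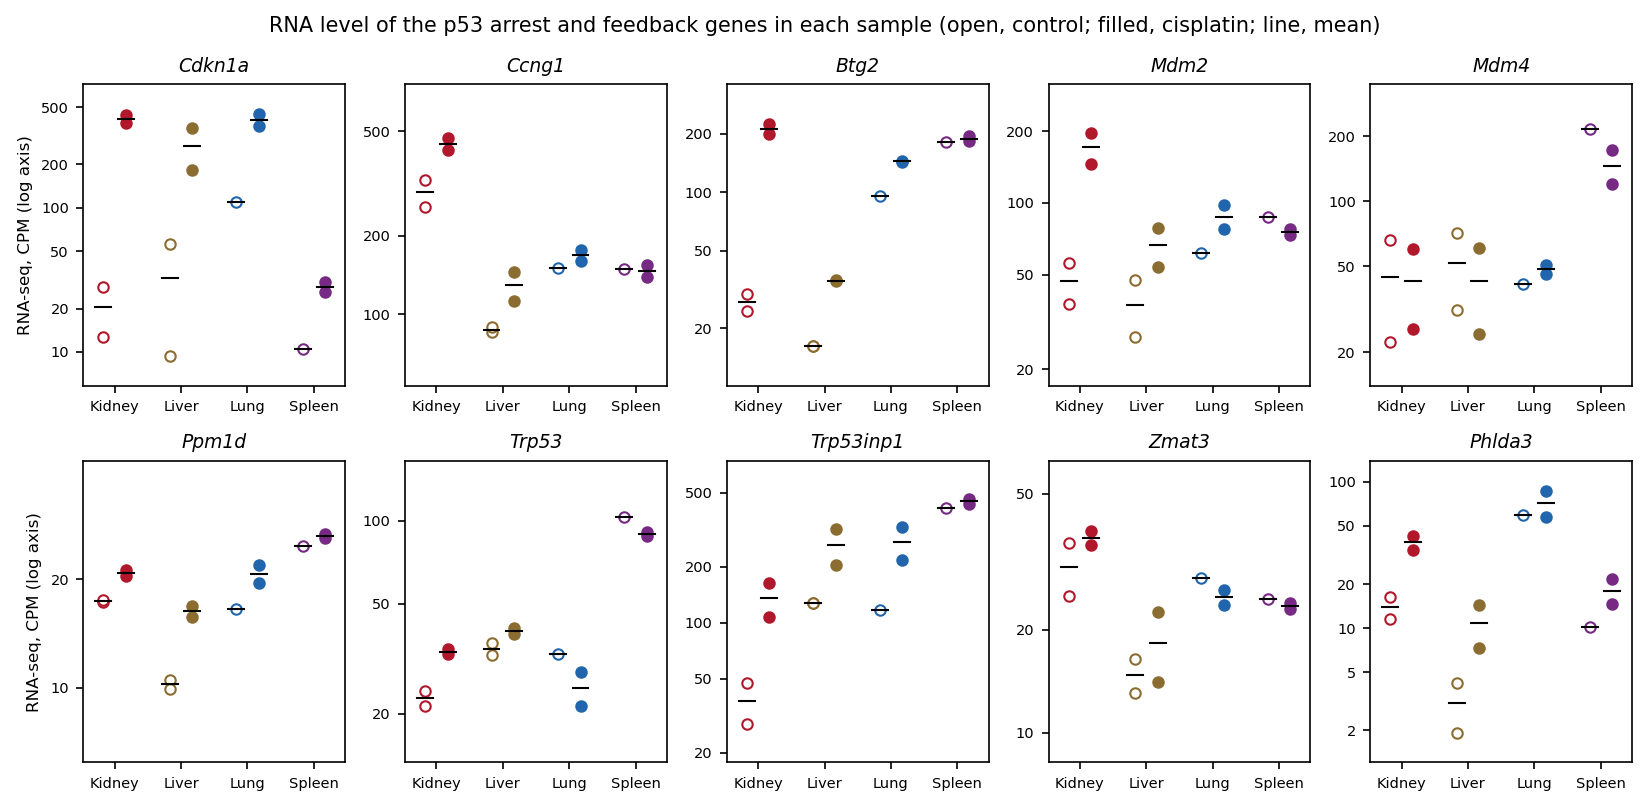
RNA-seq level of each member in every sample, in TMM-scaled CPM on a log axis, with open circles for control, filled circles for cisplatin, lines for means and the organs side by side. The cisplatin samples of Cdkn1a lie above the controls in all 4 organs, from 12.7 and 28.4 to 390 and 437 CPM in kidney, whereas Mdm4 and Zmat3 overlap in kidney and liver.

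Of the other arrest genes, Btg2 rose in kidney and in liver, and Ccng1 did not pass the test in any organ. Btg2, an antiproliferative adaptor of the deadenylase complex, stood at 24.6 and 29.9 CPM in kidney controls and at 199 and 224 CPM after cisplatin. In liver it stood at 16.2 and 16.3 CPM in controls and at 34.9 and 35.3 CPM after cisplatin, and the groups did not overlap in either organ. Btg2 rose 7.77-fold in kidney (log2 fold change 2.96 ± 0.20, adjusted p = 0.00012) and 2.16-fold in liver (1.11 ± 0.19, adjusted p = 0.0339). In lung (96.2 CPM in the control, 144 and 145 CPM after cisplatin) the log2 fold change of 0.59 ± 0.24 did not pass (adjusted p = 0.868), and in spleen it was 0.06 ± 0.23 (181 CPM in the control, 194 and 183 CPM after cisplatin). The kidney call was kept in all 13 alternatives, with an adjusted p of at most 0.00452. The liver call was kept in 6 of 13, where the adjusted p ranged from 0.0028 to 0.354. It was lost without either liver control library (log2 fold change 1.11 and 1.12) or the cisplatin library of replicate 2 (1.10). It was also lost without the filter on low counts (adjusted p = 0.0586) and when liver was fitted alone (adjusted p = 0.354), where 0 of 13868 genes were called. Ccng1, which encodes cyclin G1 and recruits a phosphatase to Mdm2, had the highest mean of the members in kidney, at 327 and 257 CPM in controls and 471 and 425 CPM after cisplatin, although Cdkn1a stood above it in the cisplatin library of replicate 2. Its log2 fold changes of 0.62 ± 0.24 in kidney (adjusted p = 0.441) and 0.56 ± 0.24 in liver (adjusted p = 0.551) did not pass, and in lung and spleen they were 0.17 ± 0.29 and -0.03 ± 0.29.

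Of the genes that restrain p53, Mdm2 rose in kidney, and Mdm4 and Ppm1d did not pass in any organ. Mdm2 stood at 55.9 and 37.7 CPM in kidney controls and at 196 and 146 CPM after cisplatin, with no overlap. It rose 3.65-fold (log2 fold change 1.87 ± 0.33, adjusted p = 0.0182). In liver (47.5 and 27.3 CPM in controls, 78.8 and 53.7 CPM after cisplatin) the log2 fold change was 0.83 ± 0.32 (adjusted p = 0.394), in lung 0.51 ± 0.40 and in spleen -0.20 ± 0.38. Mdm4 separated the replicate numbers and not the treatments in kidney and liver, since the libraries numbered 1 held 66.4 (control) and 60.1 CPM (cisplatin) in kidney and those numbered 2 held 22.3 and 25.6 CPM. The same held in liver, with 71.5 and 61.0 CPM against 31.4 and 24.2 CPM. In spleen, where Mdm4 was highest, it stood at 217 CPM in the control and 120 and 172 CPM after cisplatin (log2 fold change -0.57 ± 0.72, adjusted p = 1.0). Ppm1d ranged between 9.91 and 26.7 CPM over all samples, with its largest log2 fold change of 0.68 ± 0.20 in liver (10.5 and 9.91 CPM against 16.9 and 15.7 CPM, adjusted p = 0.301).

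Trp53, which encodes p53 itself, did not pass the test in any organ, and its point estimates lay on both sides of no change. It stood at 21.3 and 24.2 CPM in kidney controls and at 34.4 and 32.8 CPM after cisplatin (log2 fold change 0.56 ± 0.20, adjusted p = 0.45). In lung it stood at 33.0 CPM in the control and at 28.2 and 21.4 CPM after cisplatin (-0.41 ± 0.24, adjusted p = 1.0). The spleen held most of it, 103 CPM in the control and 90.8 and 87.8 CPM after cisplatin. Trp53inp1, a p53 target that promotes phosphorylation of p53, stood at 47.6 and 28.3 CPM in kidney controls and at 164 and 107 CPM after cisplatin. It rose 3.57-fold there (1.84 ± 0.36, adjusted p = 0.0321). In liver it stood at 127 and 128 CPM in controls and at 319 and 205 CPM after cisplatin (1.04 ± 0.36, adjusted p = 0.28), and in lung at 117 CPM against 216 and 325 CPM (1.21 ± 0.45, adjusted p = 0.572). Phlda3, a repressor of the kinase Akt, stood at 11.5 and 16.4 CPM in kidney controls and at 34.4 and 42.6 CPM after cisplatin (1.46 ± 0.42, adjusted p = 0.132). In liver it stood at 1.93 and 4.20 CPM in controls and at 7.34 and 14.3 CPM after cisplatin (1.82 ± 0.44, adjusted p = 0.0754). Phlda3 passed in 5 of 13 alternatives in each of these organs, among them the fit of kidney alone (adjusted p = 0.035). No libraries were summed in kidney and liver, so the fit of each alone and the same with single libraries are 1 fit counted separately among the 13. Zmat3, an RNA-binding zinc finger protein, gave log2 fold changes from -0.19 ± 0.32 in lung to 0.32 ± 0.27 in liver.

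**Figure D2:**
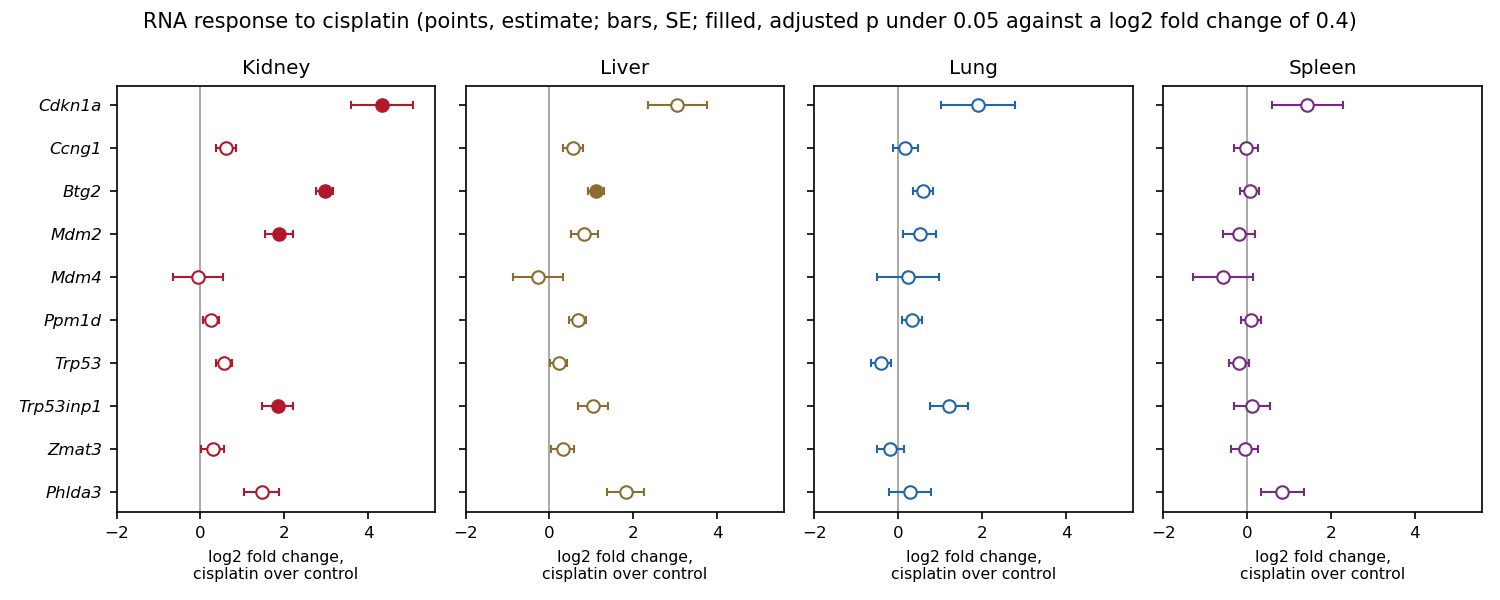
Log2 fold change of cisplatin over control for each member in each organ, with the standard error as bars and filled points for an adjusted p under 0.05 against a log2 fold change of 0.4. In kidney 4 members are filled (Cdkn1a, Btg2, Mdm2, Trp53inp1), Btg2 alone in liver, and none in lung or spleen.

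In the fit over all organs, 4 of the 10 members were called higher in kidney (1.71% of the 19100 genes tested), 1 in liver (0.408%), and none in lung (0% of all genes) or spleen (0.12%), and no member was called lower in any organ, where 1.41% (kidney), 2.3% (liver), 0.366% (lung) and 0.0157% (spleen) of all genes were. Over all genes, 327 were called higher and 269 lower in kidney with TMM factors, against 289 and 357 with size factors of the DESeq2 kind (RLE), under which the same 4 members were called. With edgeR, 1 member had an unadjusted p under 0.05 in lung (1416 of 19100 genes) and 0 in spleen (577 of 19100). DESeq2 called 0 members in both organs, beside 147 of 17147 genes in lung and 50 of 17628 in spleen. Every cisplatin sample lay above every control sample for 8 members in kidney and 8 in liver, against 25.3% and 16.5% of all genes. The corresponding counts were 7 in lung and 5 in spleen, against 37.1% and 29.6% of all genes, where the control was 1 summed sample. Every cisplatin sample lay below the control for 2 members in lung and 4 in spleen (39.3% and 42.2% of all genes), and below every control sample for none in kidney or liver (25.0% and 19.7%). The median log2 fold change of the members was 0.02 in spleen (-0.03 over all genes tested), 0.30 in lung (0.01), 0.75 in liver (0.00) and 1.04 in kidney (0.00). Each kidney call other than that of Btg2 was lost without some of the 4 kidney libraries. Cdkn1a missed the threshold without any one of them (adjusted p from 0.0585 to 0.101, log2 fold change from 3.86 to 5.03), as did Trp53inp1 (0.0549 to 0.274), and Mdm2 passed only without the control library of replicate 1 (0.0475). Over all genes, 0.441% to 0.723% were called higher in kidney without 1 of these libraries. With the whole set of libraries and each organ fitted alone, 5 members were called higher in kidney (372 of 15471 genes) and 1 in lung (24 of 18210). In these fits 0 members were called in liver, where 0 of 13868 genes were, and 0 in spleen (32 of 17686 genes called).

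Whether the response differed between organs was tested in the same fit, which had no replicate block. Btg2 was the 1 member called there (adjusted p = 0.0126), beside 0.209% of all genes. Btg2 stayed called in all 4 alternatives run for this comparison, with an adjusted p between 0.0002 and 0.0245. In 1 of these, same-numbered control and cisplatin libraries were treated as a block and each library was counted singly. Further members were called there, among them Mdm2 (adjusted p = 0.00513), beside 1778 of 18430 genes. For Cdkn1a, with estimates from 1.43 in spleen to 4.33 in kidney on the log2 scale, the fit without a block did not call the difference (adjusted p = 0.635).

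Levels of different members were compared per kilobase of exon (RPKM). Among controls, Ccng1 had the highest mean in kidney (83.2 RPKM), liver (24.9 RPKM) and lung (42.7 RPKM), and Btg2 (65.8 RPKM) and Trp53inp1 (64.3 RPKM) led in spleen. After cisplatin, Cdkn1a had moved from a mean of 5.79 to 116 RPKM in kidney, next to Ccng1 at 128 RPKM. It was the highest member in liver (76.1 RPKM, from 9.21) and in lung (115 RPKM, from 30.8), but reached only 7.99 RPKM in spleen, where Trp53inp1 (69.5 RPKM) and Btg2 (68.8 RPKM) remained the highest. Zmat3 had the lowest control mean in all 4 organs (1.29 to 2.66 RPKM). Mdm4 came next in kidney and in lung (2.80 RPKM in lung), and in spleen it stood higher, at 14.7 RPKM.

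The wider p53 pathway was described with lists of other p53 target genes, of p53 regulators and of proliferation genes. Of 28 other p53 targets, 6 were called higher in kidney (1.71% of all genes tested), 2 in liver (0.408%) and none in lung (0.0%) or spleen (0.12%). None was called lower, where 1.41% (kidney), 2.3% (liver), 0.366% (lung) and 0.0157% (spleen) of all genes were. The kidney genes with the largest changes were Plk3, a stress-responsive polo-like kinase (log2 fold change 6.72 ± 0.24, adjusted p = 4.03e-07), Pmaip1, which encodes the pro-apoptotic protein Noxa (4.32 ± 0.58, adjusted p = 0.00383), and the stress sensor Gadd45a (3.09 ± 0.26, adjusted p = 0.000368). Those in liver were Plk3 (1.82 ± 0.19, adjusted p = 0.00187) and the exonuclease gene Aen (1.19 ± 0.20, adjusted p = 0.0241). The median of the list was 0.22 in spleen (-0.03 over all genes tested), 0.36 in lung (0.01), 0.49 in liver (0.0) and 0.52 in kidney (0.0). Of 15 regulators of p53, the kinase gene Hipk2 was called lower in liver (log2 fold change -1.47 ± 0.30, adjusted p = 0.0473), where 2.3% of all genes were. None was called in the other organs, and the medians lay between -0.22 and -0.06. Of 15 proliferation genes, which are known to be repressed when p21 accumulates, Top2a was called lower in liver (-1.55 ± 0.32, adjusted p = 0.043, beside 2.3% of all genes). None was called elsewhere. Their median was lowest in lung, at -1.62 (0.01 over all genes tested), followed by -1.06 in liver (0.0), -0.65 in spleen (-0.03) and -0.11 in kidney (0.0). A link between these values and the rise of Cdkn1a was not tested.

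After the mean of each organ was subtracted, the genes outside the member list whose log2 CPM followed Cdkn1a most closely over the 14 samples were Rhoc (Pearson r = 0.985), Zfp954 (0.97), Plrg1 (0.97), Tob2 (0.969) and Nfkbia (0.962). Their log2 fold changes were smaller than those of Cdkn1a in each organ, for instance 1.42 in kidney and 0.56 in spleen for Rhoc. Among the members, Phlda3 (0.931) and Btg2 (0.888) came closest, Mdm2 reached 0.704 and Mdm4 -0.343. The samples share the organ and the treatment, so these values are a description of likeness only.

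Repair of the members was read from XR-seq, in which reads are given as CPM per 1000 GG dinucleotides of the strand. The members were repaired mainly on the TS in all 4 organs. Cdkn1a gave 103 and 112 CPM per 1000 GG on the TS in the 2 kidney libraries, against 7.61 and 10.3 on the NTS. Its TS gave 79.3 and 60.0 in lung, 58.5 and 45.8 in liver and 26.5 and 28.2 in spleen, with the NTS between 2.45 and 5.74 in these organs. The TS lay above the NTS in both libraries of every organ for this gene, and the organs did not overlap on the TS. The TS to NTS ratio per GG was 13.4 in lung, 12.1 in kidney, 10.8 in liver and 8.83 in spleen, and each was called (adjusted p from 9.68e-06 to 3.48e-05).

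All 10 members were called higher on the TS in kidney (52.8% of the 21610 genes tested), lung (55.4%) and spleen (54.2%), and 9 of 10 in liver (48.1%). The exception was Ccng1 in liver, which gave 33.6 and 27.4 CPM per 1000 GG on the TS and 19.4 and 18.7 on the NTS (log2 ratio 0.67 ± 0.52, adjusted p = 0.337). The median log2 ratio over members was 3.96 in lung (2.82 over all genes tested), 3.56 in spleen (2.80), 3.50 in kidney (2.46) and 3.42 in liver (1.84). The highest ratio was that of Zmat3 in kidney (log2 5.36 ± 1.12), and it rests on an uneven NTS, with 1 read in replicate 1 and 265 reads in replicate 2. Its TS held 1759 and 2780 reads there. Over all 8 XR-seq libraries together, the TS took between 76.4% of the reads of Ccng1 (95% Wilson interval 75.2 to 77.6%) and 96.2% of those of Zmat3 (96.0 to 96.4%), where the TS holds 50.1% and 50.5% of their GG dinucleotides. These intervals cover counting error only.

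**Figure D3:**
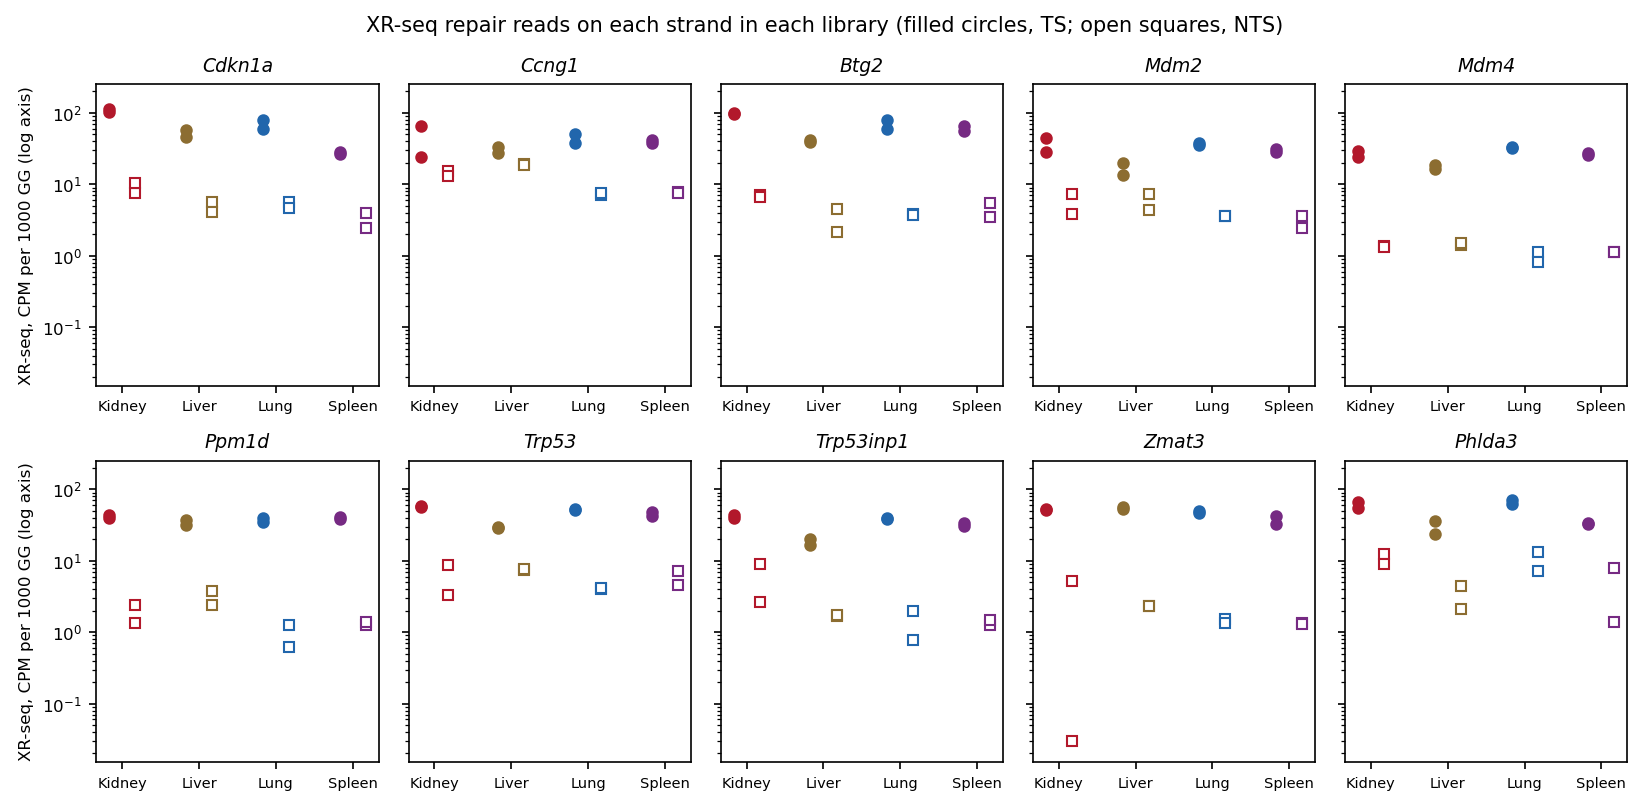
XR-seq reads on the TS (filled circles) and the NTS (open squares) of each member in every library, in CPM per 1000 GG on a log axis, by organ. The TS lies above the NTS in every library, the Cdkn1a TS falls from 103 and 112 in kidney to 26.5 and 28.2 in spleen, and the low square of Zmat3 in kidney is the library with 1 read.

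The strand ratio differed between organs for 1 member, Mdm4 (adjusted p = 0.045, beside 19.9% of all genes called). Its TS gave 32.7 and 33.5 CPM per 1000 GG in lung, 24.0 and 29.4 in kidney, 26.1 and 27.1 in spleen and 18.9 and 16.6 in liver, and its NTS between 0.822 and 1.51. The log2 ratio was 3.61 ± 0.24 in liver and 5.10 ± 0.26 in lung, with kidney (4.32 ± 0.25) and spleen (4.56 ± 0.25) between. The call was kept in 4 of 10 alternatives (adjusted p from 0.0162 to 0.252) and was lost without either library of liver, lung or spleen, whereas 4 and 7 members were called without kidney replicate 1 and replicate 2, where 31.6% and 42.6% of all genes were. The alternative without the GG offset could not change this test, because the GG count of a strand is the same in every organ. Mdm2 lay just past the threshold (adjusted p = 0.056), with log2 ratios of 1.53 ± 0.32 in liver and 2.75 to 3.34 in the other organs.

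Reads on the TS differed between organs for 8 of the 10 members (56.4% of the 21735 genes tested), and the 2 that did not pass were Ccng1 (adjusted p = 0.575) and Ppm1d (0.275). The adjusted p of the other members ranged from 1.22e-06 for Cdkn1a to 0.0126 for Zmat3. Kidney had the highest mean TS level for 7 members, lung for 2 (Mdm4 and Phlda3) and liver for 1 (Zmat3), and liver had the lowest for 8. The shares of all genes with these highest and lowest organs were not computed. The median gene lay between 9.95 and 12.1 CPM per 1000 GG on the TS in the 4 organs. Against all genes, the Cdkn1a TS stood at percentile 99.3 in kidney, 95.9 in lung, 92.1 in liver and 65.8 in spleen. Btg2 stood at percentile 98.7 in kidney (95.5 and 101 CPM per 1000 GG) and 84.6 in liver (39.6 and 41.3). On the NTS no member was called between organs, where 30.0% of all genes were called. With edgeR, 3 members had an unadjusted p under 0.05 on the NTS, as did 8420 of the 21735 genes. DESeq2 called 0 members and 6734 of 18698 genes there. Without either kidney library, more members and more of all genes were called.

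Set beside RNA, the organ with the highest mean level after cisplatin was also the organ with the highest XR-seq TS level for 5 of the 10 members, and the lowest organ was shared by 7. For Cdkn1a the order was kidney, lung, liver, spleen in both, over a range of 14.6-fold between organs in RNA and 3.94-fold in XR-seq. The same order of means in both assays was also seen for Ccng1 and Mdm2 (kidney, lung, spleen, liver) and for Phlda3 (lung, kidney, spleen, liver). For Ccng1, however, the kidney libraries gave 24.2 and 66.3 CPM per 1000 GG on the TS. The first lay below both liver libraries (33.6 and 27.4), and the F test between organs did not call the Ccng1 TS (adjusted p = 0.575). Trp53inp1 did not keep 1 order in both assays, with its lowest RNA mean (136 CPM) and its highest TS level (40.2 and 44.5 CPM per 1000 GG) both in kidney. Trp53 was likewise highest in RNA in spleen (89.3 CPM) and highest on the TS in kidney (58.5 and 57.3 CPM per 1000 GG). These are orders of 4 organs, and neighbouring organs often overlapped within their 2 libraries. They were counted for the members only, so whether such agreement is particular to the members was not tested.

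**Figure D4:**
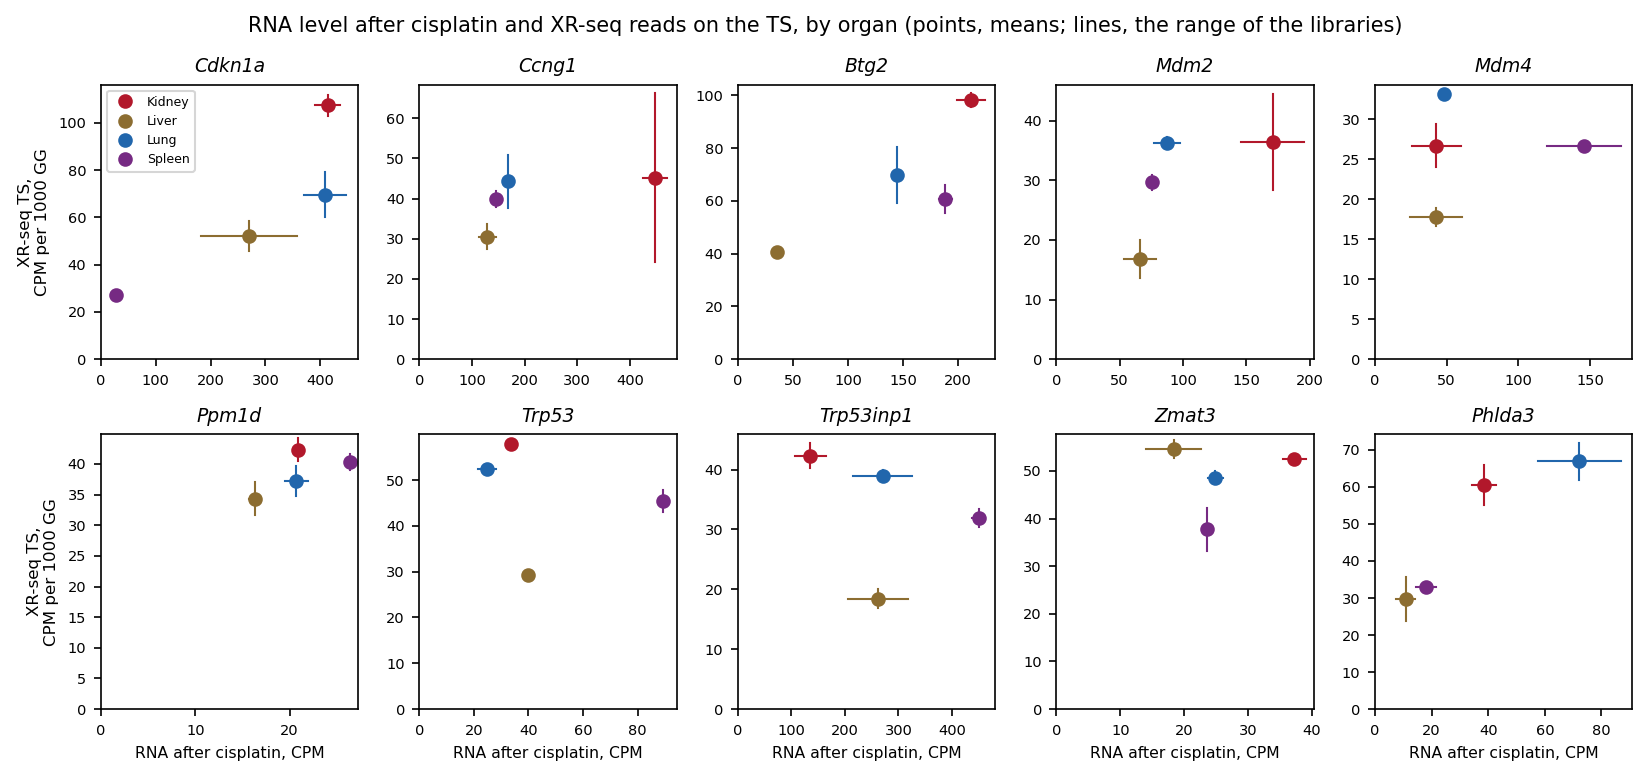
RNA level after cisplatin in CPM (horizontal axis) and XR-seq reads on the TS in CPM per 1000 GG (vertical axis) for each member, with 1 point per organ at the means and lines spanning the libraries. Cdkn1a falls in the same order on both axes, kidney, lung, liver and spleen, whereas Trp53inp1 has its lowest RNA and highest TS value in kidney.

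Adducts that remained were counted by Damage-seq at much lower depth, with 1 to 272 reads per member, strand and library. The TS held fewer adducts than the NTS for most members. Over all 8 libraries together, the TS share of the Damage-seq reads was 24.9% for Mdm2 (95% Wilson interval 21.3 to 29.0%), 25.3% for Trp53inp1 (21.2 to 29.9%), 37.4% for Cdkn1a (33.0 to 42.0%) and 43.6% for Phlda3 (35.6 to 51.8%), where the TS holds 47.0%, 50.2%, 49.0% and 44.7% of the GG dinucleotides. Of the members, Phlda3 alone had an interval that spanned its GG share. These intervals pool the reads of all libraries and cover counting error only, and leave out the spread between libraries and organs.

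Per organ, 6 members were called lower on the TS in kidney (18.8% of the 22939 genes tested), 7 in liver (29.5%), 7 in lung (24.5%) and 4 in spleen (11.8%), and none was called higher, where 0.353%, 0.868%, 1.45% and 0.532% of all genes in these organs were. Mdm2 and Ppm1d were called in all 4 organs. The TS of Mdm2 held 32 and 35 reads in kidney and its NTS 96 and 66, with 10 and 21 against 43 and 63 in lung, 5 and 6 against 22 and 22 in liver and 3 and 6 against 15 and 28 in spleen. The ratio per GG was 0.472 in kidney (adjusted p = 0.00375), 0.285 in liver (0.00127), 0.327 in lung (8.36e-05) and 0.237 in spleen (0.00202). For Ppm1d it was 0.323 in liver, 0.384 in spleen, 0.443 in lung and 0.556 in kidney (adjusted p from 3.73e-06 to 0.00399). Cdkn1a was called in lung alone (ratio 0.42, adjusted p = 0.0042), with 9 and 25 reads on the TS and 34 and 48 on the NTS. In kidney, where its XR-seq signal was highest, its TS held 54 and 31 adduct reads and its NTS 81 and 46 (ratio 0.698, log2 -0.52 ± 0.30, adjusted p = 0.276), and whether the ratio differed between organs was not shown (adjusted p = 0.639). Phlda3 was not called in any organ, with 140 reads over all libraries and both strands. The median log2 ratio of the members was -1.29 in liver (-0.33 over all genes tested), -1.21 in lung (-0.25), -0.80 in spleen (-0.23) and -0.76 in kidney (-0.19). The kidney count fell to 0 without replicate 1, where the share of all genes called lower on the TS fell to 0.626%, and stood at 6 without replicate 2 (14.7%). It fell to 3 in liver without replicate 1 (17.2%), and to 1 and 0 in spleen without replicate 1 (5.3%) and replicate 2 (2.77%).

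**Figure D5:**
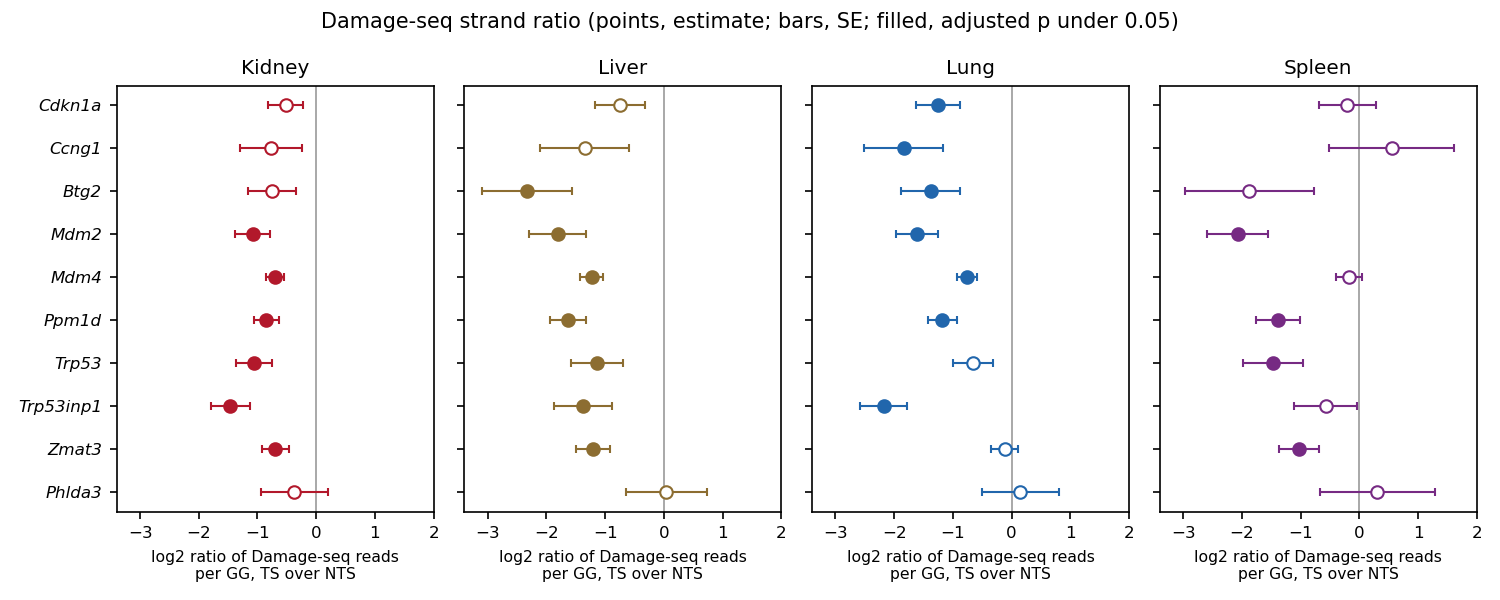
Log2 ratio of Damage-seq reads per GG on the TS over the NTS for each member in each organ, with the standard error as bars and filled points for an adjusted p under 0.05. Mdm2 and Ppm1d lie below 0 and are filled in all 4 organs, and Phlda3 lies within 1 standard error of 0 in each.

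The strand ratio of adducts differed between organs for Mdm4, at the edge of the threshold (adjusted p = 0.0498, beside 9.5% of all genes). Mdm4 is the longest member and had the most adduct reads, 147 and 142 on the TS and 272 and 200 on the NTS in kidney, 77 and 40 against 173 and 100 in liver, 104 and 138 against 175 and 235 in lung, and 52 and 68 against 50 and 86 in spleen. The ratio per GG was lowest in liver (0.427) and highest in spleen (0.89). The call was kept in 5 of 10 alternatives (adjusted p from 0.0295 to 0.271) and was lost without either library of liver or spleen and with a minimum of 20 reads on each strand. Here too, the alternative without the GG offset could not change the test between organs. Adduct reads on the TS differed between organs for 5 members (Cdkn1a, Btg2, Mdm2, Mdm4 and Ppm1d), beside 29.7% of the 22963 genes tested. Those on the NTS differed for Ppm1d alone (17.2% of genes). The TS count fell to 2 without kidney replicate 2 and to 3 without kidney replicate 1, either liver library or spleen replicate 2, where 19.7% to 27.3% of all genes were called. The NTS count was 0 without kidney replicate 2 (3221 of 22963 genes called), 2 without liver replicate 1 (12.8% of all genes) or lung replicate 1 (18.2%), and 4 without lung replicate 2 (19.7%). Btg2, for example, gave 10.6 and 15.1 CPM per 1000 GG on the TS in kidney and 1.53 and 2.54 in liver, from 22 and 28 and from 2 and 2 reads. The Btg2 NTS was also higher in kidney (23.8 and 19.1) than in liver (8.45 and 12.6), though not called between organs (adjusted p = 0.0524). The test of its strand ratio between organs did not call a difference (adjusted p = 0.633). DESeq2, which gave no adjusted p for 3 of the members, called none in either of these comparisons. It called 3184 of 16730 genes on the TS and 1396 of 15840 on the NTS. Its unadjusted p was under 0.05 for 2 members on the TS (5342 genes) and 0 on the NTS (3578 genes).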

How the data were processed

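Total RNA, genomic DNA adducts and excised oligonucleotides were measured in 32 libraries. Per the labels and the study's methods, the authors trimmed Damage-seq and XR-seq reads with cutadapt, placed them on mm10 with BWA, dropped duplicates with Picard, kept uniquely placed reads with GG at the expected position and deposited read counts per gene for the TS and the NTS. The authors aligned the RNA-seq reads with STAR and deposited gene counts from featureCounts. Versions are not given in the sources used here. The deposited counts were used as they stand, and 1 line without a gene was dropped from each Damage-seq and XR-seq file.

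RNA counts were fitted with edgeR 4.0.16 in R 4.3.3 (TMM factors, filterByExpr, quasi-likelihood test with glmTreat at a log2 threshold of 0.4) over 14 samples in 8 groups, since the control libraries of lung and spleen were each summed. Strands were compared in fits with the library as a block and the GG dinucleotides of each strand (GRCm38 sequence) as offset, for genes with 10 or more GG per strand and 20 or more reads. Organs were compared with F tests per strand, scaled by the reads on genes. Benjamini-Hochberg adjustment covered all genes tested and calls were made under 0.05. RPKM used the merged exon length of GENCODE. The scripts were tested on simulated data. The depth of each assay sets its precision, and intervals are Wilson intervals at 95%. The labels name the 2 samples of a group as replicates, and where nothing ties them to separate animals, p-values measure only the spread between these samples. The values given come from fits with no replicate block, since the labels name no shared animal or batch behind a replicate number.

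The members and lists were chosen with earlier results of these data known. Named were the 10 members, up to 3 called genes with the largest change per list and organ, and the 5 genes most like Cdkn1a. Alternatives covered DESeq2 1.42.0, other size factors, filters, fits per organ, a replicate block and leaving out each library. A further 2 alternatives, which combine the fit per organ with single libraries or with a threshold of 0, were added after seeing the data. In kidney and liver, where no libraries were summed, the fit per organ with single libraries repeats the fit per organ.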

Additional observations from a re-analysis of the deposited data

Results flagged for a closer look

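Btg2 stands here because its RNA response to cisplatin differed between organs by the test of that difference (adjusted p = 0.0126), with log2 fold changes from 0.06 in spleen and 0.59 in lung to 1.11 in liver and 2.96 in kidney. Mdm4 stands here for both strand assays because its TS to NTS ratio differed between organs. In XR-seq (adjusted p = 0.045) the log2 ratio ran from 3.61 in liver to 5.10 in lung, and in Damage-seq (adjusted p = 0.0498) from -1.23 in liver to -0.17 in spleen. The cause was not tested in any of these.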

How the results depend on the processing

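In RNA-seq of the liver, 1 member was called, where 78 of 19100 genes were called higher. DESeq2 called 2 members (114 of 16183 genes higher) and the fit without a filter 2 (173 of 24853). A threshold of 0 on the fold change called 3 (206 of 19100), as did single libraries in place of sums (244 of 18430). The fits of liver alone called 0 members and 0 of 13868 genes. In lung, against 0, the fit of lung alone called 1 (24 of 18210 genes higher), and with a threshold of 0 likewise 1 (84 of 18210). With single libraries the fit of lung alone called 3 (265 of 17017). In spleen the fit alone with single libraries called 1 (38 of 16731). Leaving out 1 library left 1 sample in a group, and counts of calls are not given for it here. Without 1 library, the log2 fold change of Cdkn1a ranged from 3.86 to 5.03 in kidney and from 2.27 to 4.86 in liver. It ranged from 1.76 to 2.03 in lung and from 1.31 to 1.55 in spleen. No call on a member changed sign in RNA-seq.

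Same-numbered control and cisplatin samples deviated together to a different degree in each organ (correlations of 0.599 in kidney, 0.468 in liver, 0.263 in spleen and 0.0945 in lung over 19100 genes). The replicate block, with each library counted singly, called 5 members each in kidney and liver (2009 and 1501 of 18430 genes). It called 2 in lung (1014 of 18430) and 0 in spleen (118 of 18430). As differing between organs it called 6 members against 1, beside 1778 of 18430 genes. In the comparisons of organs by strand, the block called 2 against 1 for Damage-seq NTS reads (3956 against 3958 of 22963 genes). It changed no other count of members there.

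For XR-seq, a minimum of 20 reads on each strand gave 2 members with a strand ratio differing between organs, beside 4390 of 19854 genes. Without 1 library, which leaves 1 library of that organ, this count moved in both directions, as did that over all genes. The TS against NTS calls ranged from 8 to 10 in kidney and 9 to 10 in lung and spleen, and they fell from 9 to 6 in liver without either library, with TS reads between organs within 7 to 9 and NTS reads within 0 to 4. Over all genes, fewer were likewise called higher on the TS of XR-seq in liver without either library. The XR-seq calls over all genes between organs moved in both directions on each strand, so these shifts are not particular to the members. For Damage-seq without 1 library, TS against NTS calls on members fell in liver, lung and spleen and stayed the same or fell in kidney. Fewer of all genes were called lower on the TS in each of these fits. Member counts for the strand ratio and TS reads between organs stayed the same or fell, and that for NTS reads moved in both directions. A minimum of 20 reads on each strand gave 0 for the Damage-seq strand ratio (2121 of 21620 genes). For TS reads, TMM factors gave 2 (6347 of 22963) and DESeq2 0 (3184 of 16730). For NTS reads, DESeq2 gave 0 (1396 of 15840). Trp53inp1 in liver turned from a log2 ratio of -1.38 to 0.47 without replicate 1 and -2.25 without replicate 2. The causes were not tested.

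Over all genes, the calls moved from 596 in kidney to 1208 with a threshold of 0, 1262 with single libraries and 2009 with the block, from 518 in liver to 0 in the fit alone and 1501 with the block, from 70 in lung to 381 alone and 1014 with the block, from 26 in spleen to 118 with the block, and from 40 genes differing between organs to 1778 with the block. DESeq2 called 3184 and 1396 genes for Damage-seq TS and NTS reads between organs, against 6810 and 3958.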
